A study of Mus musculus with 11 samples.

Results

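The mice of the comparison described here were wild type for Eltd1. The comparison set RNA pulled down with tagged endothelial ribosomes from GL261 gliomas against the same fraction from healthy brain. Of the 11 libraries analysed here, 6 belonged to it, 3 from tumours and 3 from brains, and 14166 of the 45867 gene names of the series passed its filter of at least 1 FPKM (fragments per kilobase of a gene's transcript, relative to all fragments of a library) in at least 2 of these 6 libraries. All mice were adult C57BL/6 animals carrying an eGFP-tagged L10a ribosomal protein driven by the VE-cadherin (Cdh5) promoter. The tumour mice received GL261, a mouse glioma cell line, by injection into the brain, and the tumours were dissected under a microscope. Each library came from a separate mouse sample. The 2 remaining groups carried an Eltd1 disruption as well, with 2 tumour and 3 brain libraries, and served here for the spread and for a side-by-side comparison. In translating ribosome affinity purification (TRAP), beads carrying an antibody to GFP pull down the tagged ribosomes with the transcripts they hold. The reporter therefore marks cells in which the Cdh5 promoter is active, and RNA of other cells can adhere to the beads.

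Endothelial cells of healthy brain form the blood-brain barrier. They seal their contacts with tight junctions, move nutrients through dedicated carriers, pump drugs out through ABC transporters and rarely divide, a state held by Wnt/beta-catenin signalling. In gliomas the vessels sprout, leak and lie among tumour cells and infiltrating immune cells, and interferon from lymphocytes is a known inducer of antigen presentation in endothelium.

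The labelled cell type was checked against its markers. All 20 pan-endothelial markers were detected in the wild type libraries, and their summed level was 325 to 925 FPKM in tumours and 1343 to 1520 in brains. None of the 20 rose and 6 fell, with 14 not passing, beside 13.8% lower among all tested genes. All 20 differences, tumour minus brain, were negative, with a median of -1.41 log2 units. For 12 of them every brain library lay above every tumour library, beside 21.8% of all tested genes. Markers of several other cell types were present in every library. The 20 neuronal markers summed to 7782 to 9515 FPKM in brains and to 347, 571 and 4464 in tumour replicates 1, 2 and 3. Astrocyte markers summed to 595 to 1315 FPKM in tumours and 2393 to 2748 in brains, and oligodendrocyte markers to 316 to 1077 and 1288 to 1685. In the other direction, glioma and progenitor markers summed to 1605 to 2573 FPKM in tumours and 526 to 854 in brains, and microglia and macrophage markers to 209 to 437 and 70.3 to 98.3. Of the 16 glioma and progenitor markers, however, 8 differences were positive and 8 negative. Lymphocyte markers were low, at 29.4 to 48.3 and 4.68 to 27.0 FPKM, with 8 of 18 at 0 in all 6 libraries. Mural markers overlapped, at 36.1 to 75.7 and 41.9 to 61.7 FPKM. In every brain library the neuronal sum was above the pan-endothelial sum. The glioma and progenitor sum was above it in every tumour library. The lists differ in their members, so these sums do not give shares of cells. In such bulk samples fewer cells of a type and less RNA per cell cannot be told apart. The part of these markers' cells in the changes below was not tested. In a limma fit with the neuronal level as a covariate 36 genes passed, 27 of them higher, and 1593 were at an unadjusted p under 0.05. That level, the mean log2(FPKM + 1) of the neuronal list, was 3.04, 2.72 and 6.75 in the tumours and 7.96, 7.71 and 7.63 in the brains. It did not overlap between the groups, so this fit cannot separate neuronal RNA from the comparison itself.

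**Figure D1:**
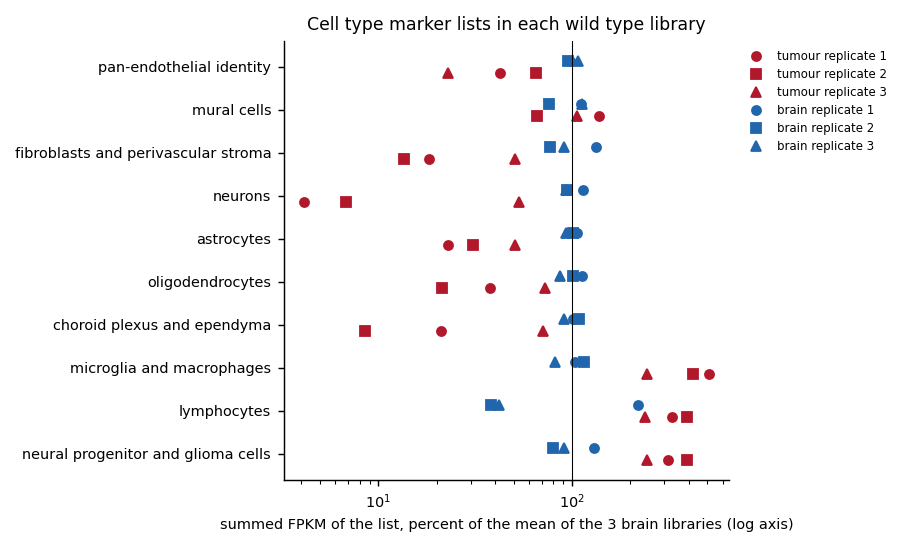
Summed FPKM of each marker list in each wild type library, as a percentage of the mean of the 3 brain libraries on a logarithmic axis; points are libraries. The neuronal sum lay at 4.1%, 6.8% and 53.1% of the brain mean in the 3 tumour libraries, and the pan-endothelial sum at 42.3%, 65.4% and 23%.

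One library stood apart. Tumour replicate 2 was at 0 for 37.3% of the tested genes, against 5.26% and 5.27% in the other tumours and 4.11% to 19.2% in the brains. FPKM carries no read number, so the depth is unknown, and a 0 is given here as listed.

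Levels were compared as log2(FPKM + 1), tumour minus brain, with limma fitted to all 4 groups and Benjamini-Hochberg adjustment over 14166 genes. At an adjusted p under 0.05, 3197 genes differed (22.6%), of which 1249 were higher (8.82%) and 1948 lower (13.8%) in tumour. With the 6 wild type libraries alone 1091 passed (7.7%), 599 higher and 492 lower, and 1089 genes passed in both fits. Of the 1948 lower genes, 1050 were at 0 in tumour replicate 2, and 108 lay in runs of neighbouring genes all at 0 in a library. Among the 7398 genes above 0 in all 6 libraries, 1566 passed, 689 higher and 877 lower. Leaving out tumour replicate 1 left 1961 passing, and leaving out brain replicates 1 and 2 left 2143 and 2115.

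FPKM is relative to all RNA in a library, so the split of the changes depends on the scale. The median difference of all tested genes was -0.30 as deposited, -0.13 after upper quartile scaling, -0.02 after quantile normalisation and 1.25 once each library was scaled to its pan-endothelial markers. The last of these adds one amount per library to every log2(FPKM + 1) value, so it moves all genes of a comparison alike, also those listed at 0, whose scaled values have no meaning as levels. The share of passing genes that were higher in tumour was 39.1%, 50.8%, 52.5% and 96.4% in that order. On the pan-endothelial scale 5121 genes were higher (36.1%) and 190 lower (1.34%), so a fall is described below as deposited and, where it matters, per endothelial marker RNA.

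**Figure D2:**
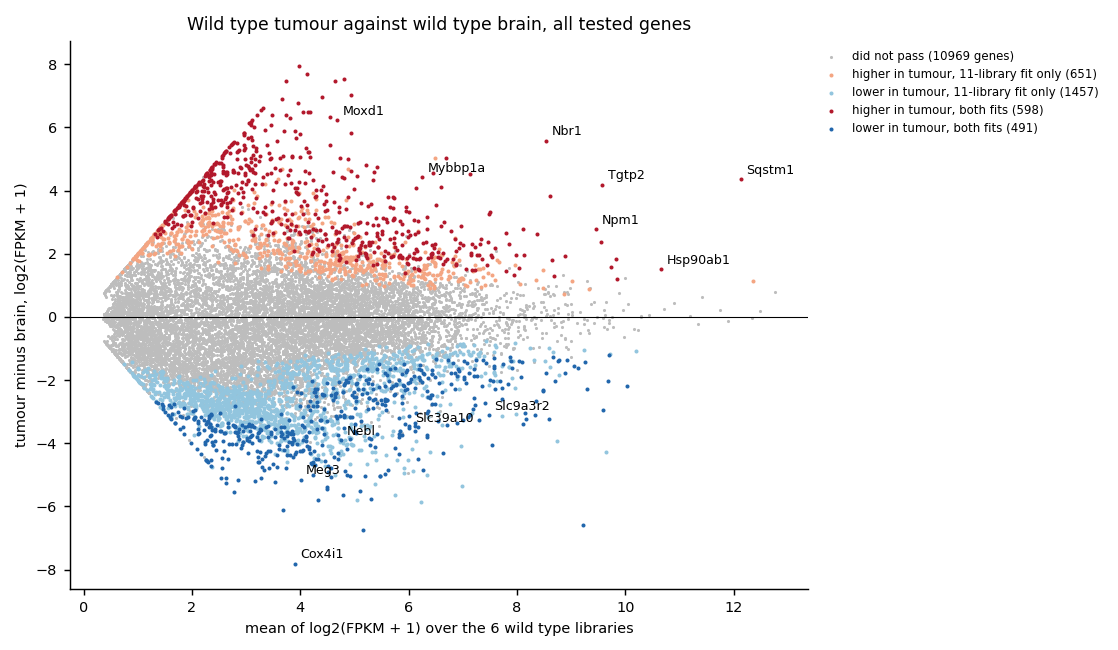
Mean log2(FPKM + 1) over the 6 wild type libraries (x axis) against the log2 difference, tumour minus brain (y axis), for each of 14166 genes; red shades are the 1249 higher and blue shades the 1948 lower genes, dark where the gene also passed with the 6 libraries alone, and grey points did not pass. Genes on the straight outer edges are at or near 0 in one group, and Sqstm1, Nbr1 and Tgtp2 lie apart at the upper right, with a high mean level and a large difference.

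Cell division genes were higher in the tumour libraries. In the list of spindle, condensin and cytokinesis genes 29 of 31 rose, with a median log2 difference of 4.51. Among mitotic kinases and regulators of the anaphase-promoting complex 18 of 27 rose, with a median of 4.56, the highest of all the lists. Kinetochore genes gave 18 of 27 with 1 lower, S phase repair genes 17 of 23, replication fork genes 21 of 29 and replication-dependent histones 22 of 46. For all tested genes the share higher was 8.82% and the median -0.30.

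Several mitotic genes were at or near 0 in every brain library. Kif11, the kinesin that separates spindle poles, measured 64.9, 65.4 and 49 FPKM in the tumours and 0, 0 and 0.902 in the brains. All tumour libraries were far above the brains (log2 difference 5.60 ± 0.53, adjusted p = 0.00017). Kif20a, a kinesin of the central spindle, measured 75.5, 59 and 73.7 FPKM in the tumours and 0, 0 and 0.108 in the brains, and Ncapg, a condensin subunit, was listed at 0 in all brains and at 46, 57.2 and 29.3 FPKM in the tumours. Plk1, a kinase of mitotic entry, was likewise listed at 0 in all brains and at 71.4, 96.5 and 47.3 FPKM in the tumours. Separase (Espl1), the protease that frees sister chromatids, was at 28, 20.2 and 20.2 FPKM in tumours and listed at 0 in brains. Cdc20, which activates the anaphase-promoting complex, measured 154, 127 and 91.8 FPKM in the tumours and 0.617, 0 and 0.907 in the brains (log2 difference 6.40 ± 0.49, adjusted p = 7.02e-05). Birc5, the survivin subunit of the chromosomal passenger complex, measured 82.3, 52.3 and 38.2 FPKM in the tumours and 0, 0 and 2.17 in the brains (log2 difference 5.25 ± 0.67, adjusted p = 0.000599).

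The S phase programme was higher as well. Of the origin licensing and helicase genes 11 of 23 rose and of the G1/S regulators 12 of 28. Mcm5, a subunit of the replicative helicase, measured 186, 188 and 101 FPKM in the tumours and 0.215, 8.78 and 2.81 in the brains, with no overlap (log2 difference 5.43 ± 0.68, adjusted p = 0.000561). Its partner Mcm7 measured 271, 253 and 119.6 FPKM in the tumours and 3.82, 6.18 and 16.1 in the brains (log2 difference 4.59 ± 0.62, adjusted p = 0.000835). Uhrf1, which guides maintenance DNA methylation, measured 48.9, 103 and 42.4 FPKM in the tumours and 0.106, 0 and 0.496 in the brains. The methyltransferase it recruits, Dnmt1, was already expressed in brain and rose from 13.8 ± 2.46 to 111 ± 13.3 FPKM (SD, n = 3; log2 difference 2.93 ± 0.36, adjusted p = 0.000522). Ccnd1, the cyclin that opens G1, measured 375, 477 and 360.5 FPKM in the tumours and 6.37, 46.6 and 35.9 in the brains (log2 difference 4.10 ± 0.58, adjusted p = 0.00102). Cdkn2a, which codes for inhibitors of the cell cycle, was higher alongside these genes, at 128, 28.8 and 51.5 FPKM in the tumours and 0.539, 0 and 0 in the brains (log2 difference 5.67 ± 0.77, adjusted p = 0.000821). Among nucleotide synthesis genes 15 of 23 rose, with Impdh2, which commits purines to guanine nucleotides, at 243, 368 and 203 FPKM in the tumours and 48.9, 28.8 and 30.3 in the brains (log2 difference 2.88 ± 0.32, adjusted p = 0.000349). In the nucleotide synthesis list the 16 that passed became 10 without tumour replicate 1. Of the glioma and progenitor markers, whose sum is given above, 5 of 16 rose and 2 fell, with a median of 0.27. The share of the division transcripts that came from glioma cells was not tested. 

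Promoters of 3 of these genes are shown because they carry the short motifs that cell cycle genes are known to share, and were chosen after their values were seen. The sequences are RefSeq's for GRCm38.p6, cover 250 bases up to the annotated start and read 5′ to 3′ on the gene's strand. Capitals mark the cell cycle homology region (CHR), spelled TTTGAA, and the CCAAT box, each on either strand, in Cdk1, at chr10:69352913-69353162 on the minus strand, and in Ccnb2, at chr9:70421555-70421804 on the minus strand. In Mcm5, at chr8:75109259-75109508 on the plus strand, they mark CCAAT boxes and an E2F motif (TTTCCCGC, TTTGGCGC or TTTCGCGC and their reverse complements), where TTTCGCGC and GCGCCAAA overlap.
Cdk1: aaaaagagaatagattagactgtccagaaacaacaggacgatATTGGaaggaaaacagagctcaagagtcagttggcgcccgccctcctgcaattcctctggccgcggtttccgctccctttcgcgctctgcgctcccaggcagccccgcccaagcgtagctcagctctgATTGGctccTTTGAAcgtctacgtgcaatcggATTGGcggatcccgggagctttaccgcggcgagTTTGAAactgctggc
Ccnb2: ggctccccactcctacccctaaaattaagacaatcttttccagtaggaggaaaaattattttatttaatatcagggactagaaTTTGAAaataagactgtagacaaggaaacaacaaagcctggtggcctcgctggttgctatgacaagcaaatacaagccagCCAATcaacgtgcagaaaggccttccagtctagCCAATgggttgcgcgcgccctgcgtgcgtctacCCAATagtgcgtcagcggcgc
Mcm5: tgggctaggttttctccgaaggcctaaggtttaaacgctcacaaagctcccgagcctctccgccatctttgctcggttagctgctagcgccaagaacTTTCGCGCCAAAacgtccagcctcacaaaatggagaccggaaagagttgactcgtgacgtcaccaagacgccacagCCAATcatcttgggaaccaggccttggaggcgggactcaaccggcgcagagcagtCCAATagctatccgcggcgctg
CHR was present in 13 of 27 matched promoters of the spindle list (48.1%) and 6 of 21 of mitotic kinases (28.6%), against 16.3% of all 27025 promoters of the same length. In the other cell cycle lists searched it was about as frequent as that or less so, at 3 of 18 for licensing, 3 of 25 for the replication fork and 2 of 22 for kinetochores. CCAAT was present in 55.6% to 76.2% of the promoters of these 5 lists and in 34.5% of all promoters, and also in 14 of 16 promoters of the MHC class I list (87.5%). The E2F letters were present in 7 of 18 licensing promoters (38.9%), in 1 to 4 promoters of each of the other cell cycle lists, and in 1.59% of all. Among interferon-induced lists CHR was present in 3 of 7 promoters of immunity-related GTPases. These matches on either strand describe the letters and not binding.

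**Figure D3:**
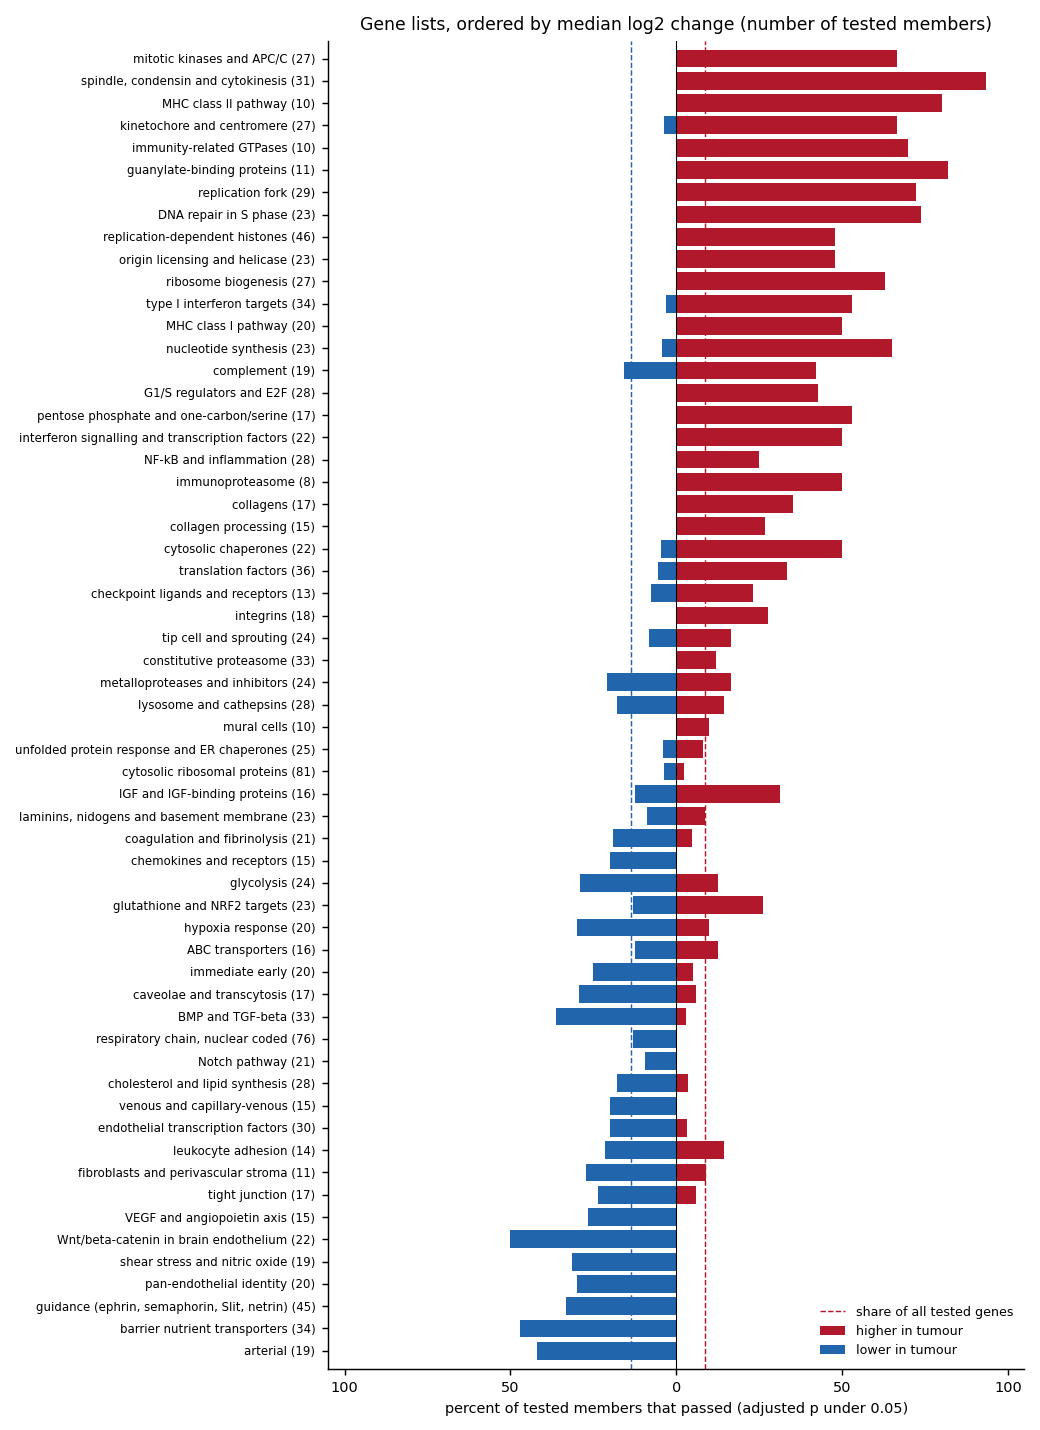
Percentage of tested members of each gene list that were higher (right) or lower (left) in tumour at an adjusted p under 0.05; dashed lines mark the 8.82% and 13.8% of all tested genes. Division, interferon and antigen presentation lists extend to the right, and barrier, arterial and Wnt lists to the left.

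Interferon-induced genes rose together. Of the guanylate-binding proteins, GTPases that act on intracellular pathogens, 9 of 11 rose, of the immunity-related GTPases 7 of 10, and of the MHC class II genes 8 of 10. Among type I interferon targets 18 of 34 rose and 1 fell, and of the interferon signalling genes 11 of 22 rose. The share higher among all tested genes was 8.82%. Tgtp2, an immunity-related GTPase, reached the highest level of its list in tumour, at 3964, 2658 and 3276 FPKM in the tumours and 98.6, 229 and 246 in the brains. Even the lowest tumour library stood above the highest brain library (log2 difference 4.19 ± 0.49, adjusted p = 0.000402). Gbp5 measured 353, 356 and 191 FPKM in the tumours and 15.9, 10.4 and 25.7 in the brains (log2 difference 4.07 ± 0.40, adjusted p = 0.000203). Stat2, a transcription factor of type I interferon signalling, measured 86.8, 65.4 and 67.4 FPKM in the tumours and 3.55, 6.38 and 3.24 in the brains (log2 difference 3.82 ± 0.46, adjusted p = 0.000434). The paralogous GTPases of these families share sequence, and the labels do not say how multiply mapping reads were counted, so levels of single members are uncertain.

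The Gbp2 promoter is printed for the interferon-stimulated response element (ISRE, TTTCNNTTTC or GAAANNGAAA), in capitals. It lies at chr3:142620413-142620662 on the plus strand.
Gbp2: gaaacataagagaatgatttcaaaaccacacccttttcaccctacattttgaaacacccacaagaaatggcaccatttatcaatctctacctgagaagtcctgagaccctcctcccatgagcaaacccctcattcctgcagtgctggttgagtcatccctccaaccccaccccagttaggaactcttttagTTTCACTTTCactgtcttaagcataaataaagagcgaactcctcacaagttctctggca
This element was present in all 5 guanylate-binding protein promoters that RefSeq's table held, in 5 of 7 of immunity-related GTPases (71.4%), in 8 of 24 of type I interferon targets (33.3%), in 3 of 16 of the MHC class I list and in 3.04% of all promoters. The GAS letters (TTCNNNGAA), the gamma-activated sequence, were present in 2, 4, 4 and 1 of these and in 7.18% of all.

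Antiviral sensors rose with them. Oasl2, of the oligoadenylate synthetase family, measured 319, 425 and 399 FPKM in the tumours and 67.8, 81.3 and 55.2 in the brains (log2 difference 2.47 ± 0.33, adjusted p = 0.000798). Ifit1, which binds foreign RNA, measured 77.2, 145 and 126 FPKM in the tumours and 19.2, 15.5 and 17.5 in the brains (log2 difference 2.63 ± 0.41, adjusted p = 0.00174), and Ddx58, the RNA sensor RIG-I, 149, 118 and 155 FPKM in the tumours and 26.9, 7.73 and 17.1 in the brains (log2 difference 3.10 ± 0.51, adjusted p = 0.0025). For antigen presentation, Ciita, the master regulator of MHC class II, was listed at 0 in all brains and at 16.7, 11.3 and 15.7 FPKM in tumours. Ctss, a protease that trims the class II invariant chain, was measurable in brain, at 228, 262 and 146 FPKM in the tumours and 54.1, 17.2 and 14.5 in the brains (log2 difference 3.05 ± 0.55, adjusted p = 0.00402). Nlrc5, the corresponding regulator of class I, measured 39, 23.3 and 38.6 FPKM in the tumours and 0.77, 2.08 and 4.2 in the brains (log2 difference 3.47 ± 0.64, adjusted p = 0.00466), and 10 of 20 class I pathway genes rose. In the MHC class I pathway list the 10 that passed became 6 without tumour replicate 1. Antigen peptides are cut by proteasomes, and the inducible subunit Psmb8 rose from 56.7 ± 4.58 to 267 ± 78.8 FPKM (SD, n = 3; log2 difference 2.18 ± 0.35, adjusted p = 0.00218). Constitutive proteasome genes gave 4 of 33, near the 8.82% higher among all tested genes, with a median difference of 0.48. In the constitutive proteasome list the 4 that passed became 2 without tumour replicate 1 or brain replicate 1, 8 without tumour replicate 3. Microglia and macrophage markers, which include MHC-positive cells, rose in 6 of 20 and averaged 392% of the brain mean over the 3 tumours. Lyz2, a myeloid lysozyme, measured 107, 62.3 and 19.6 FPKM in the tumours and 3.28, 0 and 0.169 in the brains (log2 difference 4.93 ± 0.79, adjusted p = 0.00212). Their part in the interferon and MHC levels was not tested. 

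Barrier carriers were lower in the tumour libraries. Of the barrier nutrient transporters 16 of 34 fell and none rose, with a median of -1.66, beside 13.8% lower and -0.30 for all genes. With the 6 libraries alone 10 passed, and on the pan-endothelial scale 7 still fell while 3 rose. Slc9a3r2, a scaffold that anchors transporters, measured 70.8, 38.1 and 78.9 FPKM in the tumours and 527, 493 and 559.7 in the brains. The groups were far apart (log2 difference -3.12 ± 0.34, adjusted p = 0.000285), and the difference per pan-endothelial RNA was -1.56 (adjusted p = 0.00985). Slco1c1, the thyroxine carrier of the barrier, measured 9.84, 11.4 and 23.8 FPKM in the tumours and 108, 98.8 and 119.9 in the brains (log2 difference -2.88 ± 0.36, adjusted p = 0.000554), with -1.32 after scaling (adjusted p = 0.0422). Slc39a10, a zinc importer, measured 33.8, 11.2 and 15.4 FPKM in the tumours and 263, 260.4 and 149 in the brains (log2 difference -3.51 ± 0.48, adjusted p = 0.000835). Slc22a8, an organic anion carrier, measured 0.667, 3.2 and 2.08 FPKM in the tumours and 41.2, 24.9 and 31.4 in the brains (log2 difference -3.56 ± 0.51, adjusted p = 0.00111), and Slc19a3, a thiamine carrier, 1.13, 0 and 0 FPKM in the tumours and 23.4, 15.6 and 22.9 in the brains (log2 difference -4.05 ± 0.56, adjusted p = 0.000946).

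**Figure D4:**
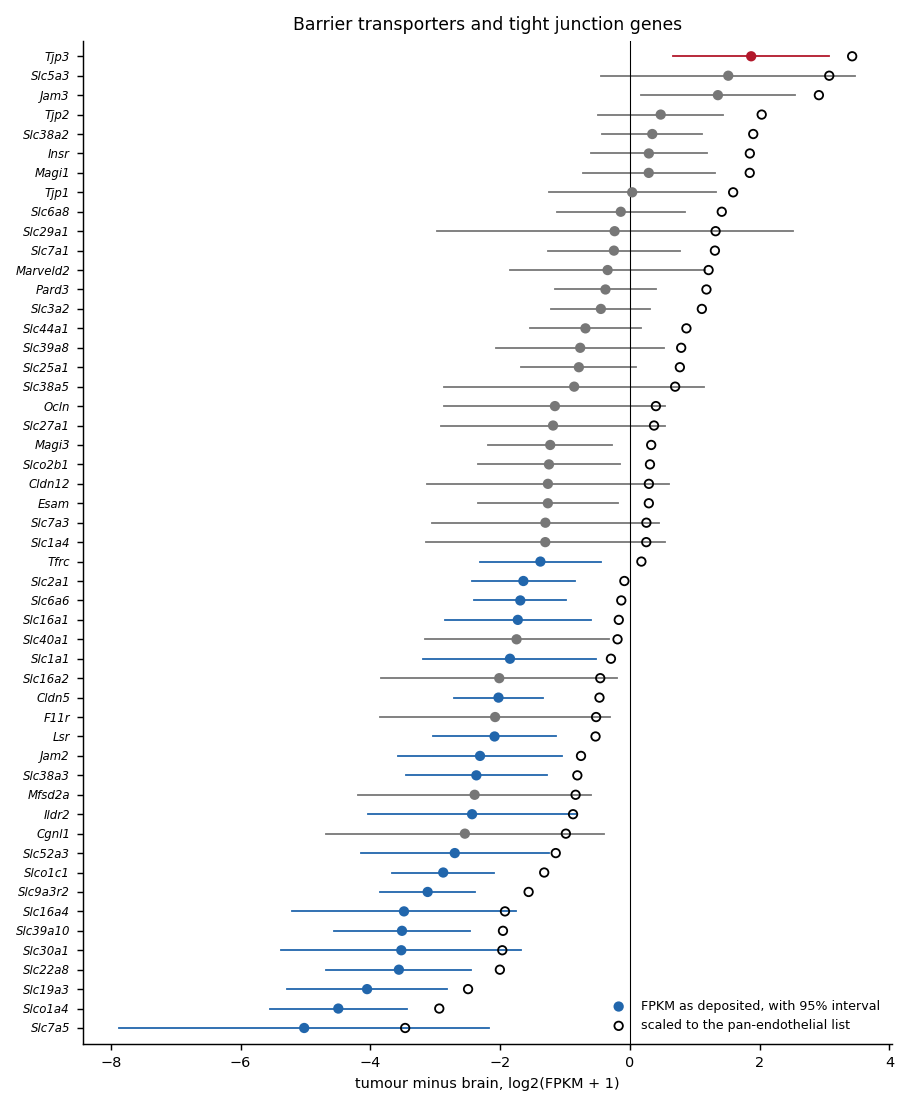
Log2 difference, tumour minus brain, of the barrier nutrient transporters and tight junction genes as deposited (filled points with 95% confidence interval, n = 3 against 3) and after scaling to pan-endothelial markers (open circles); blue genes fell as deposited, red rose and grey did not pass. Scaling moves every gene to the right by the same distance; 7 of 34 transporters and none of 17 tight junction genes then fell at an adjusted p under 0.05, and 3 and 4 rose.

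The main efflux pumps were lower or did not pass. Abcb1a, the P-glycoprotein pump, measured 4.59, 13.9 and 12.7 FPKM in the tumours and 119.8, 70.2 and 92.4 in the brains (log2 difference -3.15 ± 0.48, adjusted p = 0.00168) and stayed lower after scaling (-1.60, adjusted p = 0.0445). Abcg2, the other main pump of the barrier, was at 27.9, 0 and 24.3 FPKM in the tumours and 30.02, 76.8 and 129 in the brains and did not pass (log2 difference -2.91 ± 1.05, adjusted p = 0.067). Abce1, an ABC protein that recycles ribosomes and transports nothing, rose (log2 difference 1.86 ± 0.32, adjusted p = 0.00323). Of the ABC transporter list 2 of 16 rose and 2 fell, shares near the 8.82% and 13.8% of all tested genes. Tight junction genes fell in 4 of 17 and rose in 1 as deposited, and after scaling none fell and 4 rose. Lsr, angulin of tricellular junctions, measured 11.1, 6.05 and 14.5 FPKM in the tumours and 52, 33.3 and 54.8 in the brains (log2 difference -2.09 ± 0.43, adjusted p = 0.00767), with -0.53 after scaling (adjusted p = 0.439). Tjp3, which codes for ZO-3, was listed at 0 in all brains and at 2.14, 5.44 and 1.41 FPKM in tumours (adjusted p = 0.0323, 0.107 with the 6 libraries alone, 0.0707 with quantile normalisation). In the tight junction list the 5 that passed became 3 without tumour replicate 1 or brain replicate 3, 8 without tumour replicate 3, 2 without brain replicate 1. Of the vesicle transport genes 5 of 17 fell and 1 rose (2 and 7 after scaling). Fcgrt, the neonatal Fc receptor that returns antibodies to blood, measured 3.6, 11.7 and 2.41 FPKM in the tumours and 82.4, 47 and 45.3 in the brains (log2 difference -3.29 ± 0.53, adjusted p = 0.00218), and remained lower after scaling (-1.73, adjusted p = 0.038). Sdpr, a caveolar coat protein, measured 6.27, 0 and 6.76 FPKM in the tumours and 45.3, 57.4 and 66.8 in the brains (log2 difference -3.89 ± 0.68, adjusted p = 0.0035), whereas Ptrf, the cavin that shapes caveolae, measured 81, 90.4 and 71.4 FPKM in the tumours and 280.1, 168 and 241 in the brains (log2 difference -1.47 ± 0.27, adjusted p = 0.00431, turning to 0.087 after pan-endothelial scaling). Clathrin heavy chain, Cltc, of the other uptake route, rose (log2 difference 1.11 ± 0.24, adjusted p = 0.00986, 0.0567 with the 6 libraries alone). Tjp3 did not pass without tumour replicate 1 (adjusted p = 0.0625), tumour replicate 2 (0.0748), brain replicate 1 (0.0653), brain replicate 2 (0.068) or brain replicate 3 (0.0706).

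Among the lists of endothelial signalling genes more members fell than rose as deposited in all but the tip cell and IGF lists, and most members did not pass. All tested genes leaned the same way, with 13.8% lower and 8.82% higher. After pan-endothelial scaling the direction turned in most of these lists, as it did over all tested genes, with 1.34% lower and 36.1% higher. Of the Wnt/beta-catenin list 11 of 22 fell as deposited and 3 with the 6 libraries alone, and after pan-endothelial scaling 1 fell and 4 rose. Fzd4, the receptor for the barrier-inducing ligands, measured 1.67, 0 and 1.08 FPKM in the tumours and 14.5, 11.9 and 9.61 in the brains (log2 difference -2.86 ± 0.59, adjusted p = 0.00779, 0.0536 with the 6 libraries alone, 0.14 after pan-endothelial scaling). Of the transcription factor list 6 of 30 fell as deposited, and after scaling none fell and 6 rose. Klf2, the factor induced by laminar flow, measured 15.6, 27.1 and 14.8 FPKM in the tumours and 101, 118 and 143 in the brains (log2 difference -2.63 ± 0.33, adjusted p = 0.000585), with -1.07 after scaling (adjusted p = 0.0624). Epas1, which codes for HIF-2alpha, measured 59.6, 57.3 and 84.7 FPKM in the tumours and 307, 206 and 254 in the brains (log2 difference -1.92 ± 0.27, adjusted p = 0.00111), with -0.36 after scaling (adjusted p = 0.482). The ETS repressor Etv6, named after its values were seen, was the single member that rose, at 41.9, 61.9 and 31 FPKM in the tumours and 11.6, 13.7 and 13.1 in the brains (log2 difference 1.68 ± 0.53, adjusted p = 0.0412, 0.0651 with the 6 libraries alone). Klf2 also led the shear stress and nitric oxide list, of which 6 of 19 fell (none after scaling, when 3 rose), with Thbd, the anticoagulant thrombomodulin, at 2.36, 0 and 2.26 FPKM in the tumours and 12.3, 31.9 and 16.7 in the brains (log2 difference -3.16 ± 0.72, adjusted p = 0.0115, 0.0518 with the 6 libraries alone, 0.106 after pan-endothelial scaling). In the Wnt/beta-catenin in brain endothelium list the 11 that passed became 7 without tumour replicate 1 or brain replicate 3, 5 without brain replicate 1, 6 without brain replicate 2. In the endothelial transcription factors list the 7 that passed became 4 without brain replicate 3. In the shear stress and nitric oxide list the 6 that passed became 3 without brain replicate 3. Etv6 did not pass without tumour replicate 1 (adjusted p = 0.0895), tumour replicate 2 (0.105), brain replicate 1 (0.092), brain replicate 2 (0.0788) or brain replicate 3 (0.084).

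In the BMP and TGF-beta list 12 of 33 fell and 1 rose as deposited, beside 13.8% lower and 8.82% higher among all tested genes. After pan-endothelial scaling none fell and 9 rose. Bmpr2, a type II receptor, measured 4.73, 5.35 and 7.43 FPKM in the tumours and 34.2, 31.6 and 26.5 in the brains (log2 difference -2.23 ± 0.39, adjusted p = 0.0034, 0.308 after pan-endothelial scaling), and its ligand Bmp4 0.987, 0 and 1.39 FPKM in the tumours and 16.3, 11.6 and 8.17 in the brains (log2 difference -2.91 ± 0.64, adjusted p = 0.00967, 0.0526 with the 6 libraries alone, 0.158 after pan-endothelial scaling). Acvrl1, the type I receptor ALK1, measured 16.9, 37.8 and 9.62 FPKM in the tumours and 74.6, 77.8 and 69.98 in the brains (log2 difference -1.95 ± 0.43, adjusted p = 0.0105, 0.0604 with the 6 libraries alone, 0.571 after pan-endothelial scaling). The VEGF and angiopoietin list gave 4 lower of 15 and none higher, and the tip cell list 4 higher and 2 lower of 24. After scaling these became 2 lower and 4 higher, and 13 higher and none lower. Igfbp3, which binds insulin-like growth factors, was among the higher ones (log2 difference 1.73 ± 0.54, adjusted p = 0.0405, 0.126 with the 6 libraries alone), and Chst1, a sulfotransferase, among the lower (log2 difference -1.50 ± 0.37, adjusted p = 0.0166, 0.0884 with the 6 libraries alone, turning to 0.059 after pan-endothelial scaling). Arterial genes fell in 8 of 19 and venous genes in 3 of 15, a difference between the lists that was not tested. With the 6 libraries alone 4 arterial genes fell. Only 2 of the 19 arterial genes were above 0 in all 6 libraries, and 1 passed in the fit of such genes. After scaling 2 arterial genes fell and 1 rose, and 1 venous gene fell and 5 rose. Cytl1, a secreted arterial marker, was listed at 0 in all tumours and at 23.1, 16.1 and 19.8 FPKM in brains. Of the Notch list 2 of 21 fell as deposited, a share below the 13.8% of all tested genes, and after scaling none fell and 2 rose. In the BMP and TGF-beta list the 13 that passed became 8 without brain replicate 3. In the Notch pathway list the 2 that passed became 4 without tumour replicate 3, 1 without brain replicate 2. Igfbp3 did not pass without tumour replicate 1 (adjusted p = 0.118), tumour replicate 2 (0.0963), brain replicate 1 (0.0534), brain replicate 2 (0.119) or brain replicate 3 (0.0576). Chst1 did not pass without tumour replicate 1 (adjusted p = 0.0569).

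Guidance genes fell in 15 of 45 as deposited and none rose, against 13.8% of all genes, with 4 in the 6-library fit. After pan-endothelial scaling 1 fell and 4 rose. Sema3c, a secreted semaphorin, measured 2.12, 0 and 7.53 FPKM in the tumours and 47.5, 126 and 36.5 in the brains (log2 difference -4.36 ± 0.72, adjusted p = 0.00247), and Sema7a, a membrane-anchored one, 15.2, 32.5 and 27.2 FPKM in the tumours and 87.4, 104 and 108 in the brains (log2 difference -2.02 ± 0.34, adjusted p = 0.00296, 0.463 after pan-endothelial scaling). Neurons use these genes too, and the neuronal markers fell alongside, whose part in the guidance levels was not tested. In the guidance (ephrin, semaphorin, Slit, netrin) list the 15 that passed became 8 without tumour replicate 1, 7 without tumour replicate 2 or brain replicate 1, 9 without brain replicate 2 or brain replicate 3. RNA-binding proteins of the IGF axis went the other way: Igf2bp2 measured 35, 85 and 25.4 FPKM in the tumours and 0, 0 and 0.566 in the brains (log2 difference 5.22 ± 0.64, adjusted p = 0.000501) and Igf2bp3 24.4, 11.5 and 11.3 FPKM in the tumours and 0, 0 and 0.699 in the brains (log2 difference 3.72 ± 0.56, adjusted p = 0.00154). Both bind mRNA in fetal tissue and tumours. Irs2, an adaptor of the insulin receptor, measured 41.7, 41 and 64.4 FPKM in the tumours and 6.07, 15 and 14.7 in the brains (log2 difference 2.01 ± 0.48, adjusted p = 0.0142, 0.0545 with the 6 libraries alone), and in all 5 of 16 genes of the list rose and 2 fell (8 and none after scaling). In the IGF and IGF-binding proteins list the 7 that passed became 4 without brain replicate 1. 

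Some matrix genes rose. Of the collagens 6 of 17 rose and none fell, and of the processing genes 4 of 15 rose. Among all tested genes 8.82% were higher and 13.8% lower. Col11a1, a minor fibrillar chain, measured 34.7, 19.4 and 21.1 FPKM in the tumours and 0, 0 and 0.146 in the brains (log2 difference 4.59 ± 0.51, adjusted p = 0.000344), and its partner chain Col11a2 13.6, 20.8 and 13.9 FPKM in the tumours and 0, 0.34 and 0.383 in the brains (log2 difference 3.78 ± 0.53, adjusted p = 0.000996). Col16a1, a fibril-associated chain, measured 34, 19.99 and 116 FPKM in the tumours and 0, 2.14 and 0.567 in the brains (log2 difference 4.70 ± 0.82, adjusted p = 0.0035). Pcolce, which speeds the trimming of procollagen, measured 148, 179 and 54.4 FPKM in the tumours and 0, 2.81 and 0.912 in the brains (log2 difference 5.88 ± 0.84, adjusted p = 0.00109). Loxl3, a crosslinking oxidase, measured 13.7, 6.71 and 5.33 FPKM in the tumours and 0, 0 and 0.372 in the brains (log2 difference 3.01 ± 0.57, adjusted p = 0.00518). In the collagen processing list the 4 that passed became 2 without tumour replicate 1 or tumour replicate 2 or brain replicate 2. Emilin1, a glycoprotein of elastic fibres, gave the highest difference among the basement membrane and matrix genes, at 101, 66.8 and 104 FPKM in the tumours and 0, 0 and 1.39 in the brains (log2 difference 6.07 ± 0.57, adjusted p = 0.00017). That list as a whole had 2 higher and 2 lower of 23, shares no larger than those of all tested genes. Fibroblast markers summed to 91.4 to 339 FPKM in tumours and 520 to 890 in brains. Of 11 tested 1 rose and 3 fell, and the gene that rose was Col3a1, a fibrillar chain also among the collagens. Thy1 is also in the neuronal list, and 5 of the 16 fibroblast markers, Col1a1 among them, did not reach the filter. The sum therefore need not follow fibroblasts, and the part of these cells in the collagen levels was not tested.

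Beside 8.82% of all tested genes, 5 of 18 integrins rose. They included leukocyte chains: Itgb2, the shared beta subunit of leukocyte integrins, measured 23.3, 40.2 and 15.4 FPKM in the tumours and 0, 0.0977 and 0.982 in the brains (log2 difference 4.29 ± 0.62, adjusted p = 0.00119), and Itgax, the alpha chain CD11c, 11.5, 22.8 and 6.25 FPKM in the tumours and 0, 0.0561 and 0 in the brains (log2 difference 3.67 ± 0.57, adjusted p = 0.00188). Itgb1, the beta chain of most matrix receptors, measured 135, 98.9 and 40.9 FPKM in the tumours and 32.7, 33.6 and 32 in the brains (log2 difference 1.29 ± 0.40, adjusted p = 0.04, 0.13 with the 6 libraries alone). In the integrins list the 5 that passed became 3 without tumour replicate 1 or brain replicate 2. Among metalloproteases and inhibitors 4 rose and 5 fell of 24 (11 and none after scaling), beside 8.82% and 13.8% of all tested genes as deposited. Timp2, an inhibitor, measured 12.7, 1.94 and 20.9 FPKM in the tumours and 57.9, 114 and 80.9 in the brains (log2 difference -3.10 ± 0.68, adjusted p = 0.0095, 0.0919 after pan-endothelial scaling), and Timp1, a related inhibitor, was listed at 0 in all brains and at 4.81, 17.9 and 1.99 FPKM in tumours (adjusted p = 0.013, 0.0738 with the 6 libraries alone). Cspg4, the pericyte and glial proteoglycan NG2, was the single mural marker that rose, at 32.3, 27.4 and 9.79 FPKM in the tumours and 4.98, 4.56 and 3.02 in the brains (log2 difference 2.08 ± 0.53, adjusted p = 0.0182, 0.0934 with the 6 libraries alone). Itgb1 did not pass without tumour replicate 1 (adjusted p = 0.135), tumour replicate 2 (0.0922), brain replicate 1 (0.0822), brain replicate 2 (0.0802) or brain replicate 3 (0.0876). Cspg4 did not pass without tumour replicate 1 (adjusted p = 0.0716) or brain replicate 3 (0.0536).

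Several complement genes rose. Among early components, C3, the central one, measured 30.1, 44.2 and 28.2 FPKM in the tumours and 0, 0 and 0.0367 in the brains (log2 difference 5.09 ± 0.53, adjusted p = 0.00023), and C4b, of the classical pathway, 153, 136 and 103 FPKM in the tumours and 7.69, 15.8 and 2.27 in the brains (log2 difference 4.06 ± 0.61, adjusted p = 0.0014). The protease genes C1s1 and C2 were listed at 0 in all brains and at 96.6, 126 and 27.7 and 40.8, 76.6 and 15 FPKM in tumours. In all 8 of 19 rose, beside 8.82% of all tested genes, and 3 fell, near the 13.8% of all tested genes. After scaling 11 rose and none fell. C1qc, a chain of C1q that macrophages make, measured 23.3, 25 and 16 FPKM in the tumours and 0, 2.8 and 0.539 in the brains (log2 difference 3.61 ± 0.79, adjusted p = 0.00983), and the macrophage sums above moved the same way, whose part was not tested. Coagulation and fibrinolysis genes gave 1 higher and 4 lower of 21. Gas6, a vitamin K-dependent ligand, measured 2.87, 3.57 and 11.2 FPKM in the tumours and 28.3, 55.6 and 43.9 in the brains (log2 difference -2.81 ± 0.55, adjusted p = 0.00585, 0.131 after pan-endothelial scaling), and Anxa1, a phospholipid-binding annexin, 235, 237 and 83.4 FPKM in the tumours and 8.27, 0 and 14.3 in the brains (log2 difference 5.01 ± 0.93, adjusted p = 0.00465). Adhesion genes for leukocytes were mixed, with 2 higher and 3 lower of 14. Cd44, a hyaluronan receptor also in the glioma list, measured 39.9, 17.7 and 20.6 FPKM in the tumours and 0, 0 and 2.43 in the brains (log2 difference 4.08 ± 0.64, adjusted p = 0.00188), and Cd99l2 3.34, 0.818 and 8.13 FPKM in the tumours and 42.3, 25.8 and 20.5 in the brains (log2 difference -2.81 ± 0.61, adjusted p = 0.00949, 0.059 with the 6 libraries alone, 0.162 after pan-endothelial scaling). 

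In metabolism, serine and folate enzymes rose, and most of the tested mitochondrially coded genes of the respiratory chain fell. Of the pentose phosphate and one-carbon genes 9 of 17 rose, beside 8.82% of all tested genes. Aldh1l2, which oxidises formyl folate in mitochondria, measured 136, 173 and 70.8 FPKM in the tumours and 0.0594, 3.18 and 1.21 in the brains (log2 difference 5.80 ± 0.63, adjusted p = 0.000309). Shmt2, which splits serine in mitochondria, measured 171, 109 and 113 FPKM in the tumours and 0.99, 10.4 and 9.19 in the brains (log2 difference 4.40 ± 0.63, adjusted p = 0.00108), and Mthfd1l, a later step to formate, 97.2, 83.1 and 53.7 FPKM in the tumours and 5.51, 12.8 and 11.5 in the brains (log2 difference 2.88 ± 0.47, adjusted p = 0.00247). Mthfd1, the cytosolic enzyme that joins these steps, measured 85.8, 41.8 and 49.6 FPKM in the tumours and 22.2, 9.88 and 16 in the brains (log2 difference 1.82 ± 0.44, adjusted p = 0.0148, 0.0626 with the 6 libraries alone). Asns, which makes asparagine, measured 248, 132 and 172 FPKM in the tumours and 39.8, 62.4 and 65.3 in the brains (log2 difference 1.69 ± 0.32, adjusted p = 0.00512). Glycolysis had 3 higher and 7 lower of 24 as deposited, and 14 and none after scaling. Slc2a3, the neuronal glucose carrier, measured 6.75, 0.769 and 11.1 FPKM in the tumours and 48.6, 50.2 and 47 in the brains (log2 difference -3.17 ± 0.67, adjusted p = 0.00824, 0.0839 after pan-endothelial scaling), and Eno2, the neuronal enolase, 37.7, 33.6 and 499 FPKM in the tumours and 831, 685 and 701 in the brains (log2 difference -3.08 ± 0.80, adjusted p = 0.0195, 0.0711 with the 6 libraries alone, 0.179 after pan-endothelial scaling). Both are genes of neurons, whose markers fell alongside, and the part of neuronal RNA in these 2 falls was not tested. In the mitochondrially coded respiratory chain list, whose transcripts are read by mitochondrial ribosomes, 6 of 13 members did not reach the filter. Of these, mt-Nd3, mt-Nd4l, mt-Co2 and mt-Co3 were listed at 0 in all 6 wild type libraries, and mt-Atp8 at 334 FPKM in brain replicate 2 alone. Whether such values reflect the processing was not tested. Of the 7 tested members 5 fell and none rose, with a median of -5.19, and 5 fell with the 6 libraries alone and 4 after scaling. mt-Co1, a core subunit of cytochrome c oxidase, measured 6.57, 0 and 4.49 FPKM in the tumours and 410.5, 415 and 295 in the brains (log2 difference -6.74 ± 0.61, adjusted p = 0.000127), and mt-Nd1, a core subunit of complex I, 2.64, 0 and 0 FPKM in the tumours and 109, 191 and 57.5 in the brains (log2 difference -6.12 ± 0.67, adjusted p = 0.000309). Both were far lower in every tumour library than in any brain library. Nuclear respiratory chain genes fell in 10 of 76, a share near the 13.8% of all tested genes, and rose in none, and after scaling 22 rose and 1 fell. Ndufb4, a complex I subunit, measured 61.2, 33.8 and 43.7 FPKM in the tumours and 177, 141 and 167 in the brains (log2 difference -1.82 ± 0.43, adjusted p = 0.0141, 0.679 after pan-endothelial scaling). In the glycolysis list the 10 that passed became 3 without tumour replicate 1, 5 without tumour replicate 2 or brain replicate 1. In the respiratory chain, nuclear coded list the 10 that passed became 6 without brain replicate 1, 5 without brain replicate 2. Mthfd1 did not pass without tumour replicate 1 (adjusted p = 0.0591). Eno2 did not pass without tumour replicate 1 (adjusted p = 0.072), tumour replicate 2 (0.0677) or brain replicate 1 (0.0568).

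The antioxidant list held the most abundant transcript of the tumour group among the named genes. Sqstm1, which codes for the autophagy receptor p62 and lies on chromosome 11 at 50200152 to 50210820, measured 21015, 21776 and 18355 FPKM in the tumours and 1122, 838 and 1050.4 in the brains. The lowest tumour library was far above the highest brain library (log2 difference 4.35 ± 0.42, adjusted p = 0.000171). Nbr1, a second autophagy receptor with the same kinds of domain, on chromosome 11 at 101552107 to 101581951, measured 3519.9, 2411 and 2005 FPKM in the tumours and 60.6, 50.9 and 48 in the brains (log2 difference 5.58 ± 0.50, adjusted p = 0.000127). The knockout mice gave differences of 3.78 for Sqstm1 and 4.02 for Nbr1. Txnrd1, a thioredoxin reductase under NRF2, rose as well, at 198, 214 and 120.3 FPKM in the tumours and 27.4, 23.6 and 31.3 in the brains (log2 difference 2.62 ± 0.31, adjusted p = 0.000442), as did Gsr, glutathione reductase (log2 difference 2.34 ± 0.44, adjusted p = 0.00493). Other targets fell, among them Gstm1, a glutathione transferase, at 17.3, 16.7 and 52.4 FPKM in the tumours and 79.8, 175 and 100.2 in the brains (log2 difference -2.13 ± 0.48, adjusted p = 0.011, 0.0526 with the 6 libraries alone, 0.438 after pan-endothelial scaling), and Sod2, the mitochondrial superoxide dismutase (log2 difference -1.86 ± 0.41, adjusted p = 0.0104, 0.0552 with the 6 libraries alone, 0.673 after pan-endothelial scaling). The list gave 6 higher and 3 lower of 23, beside 8.82% and 13.8% of all tested genes. 

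Genes that build and serve ribosomes rose while most ribosomal protein genes did not pass. Of the ribosome biogenesis genes 17 of 27 rose, beside 8.82% of all tested genes, with a median of 2.05. Npm1, the nucleolar chaperone nucleophosmin, measured 2159.9, 2769.6 and 1051 FPKM in the tumours and 306, 213 and 301 in the brains (log2 difference 2.77 ± 0.34, adjusted p = 0.000531), and Ddx21, a nucleolar helicase, 121, 90.3 and 74.2 FPKM in the tumours and 8.47, 5.61 and 9.97 in the brains (log2 difference 3.42 ± 0.40, adjusted p = 0.000402). Mybbp1a, a nucleolar protein outside the lists, measured 388, 511 and 217 FPKM in the tumours and 13.8, 16.3 and 16.2 in the brains (log2 difference 4.42 ± 0.35, adjusted p = 7.02e-05). Translation factors gave 12 higher and 2 lower of 36. Eef2, the elongation factor, rose from 483 ± 48.4 to 1751 ± 357 FPKM (SD, n = 3; log2 difference 1.84 ± 0.24, adjusted p = 0.000659). Eif4a1, a helicase of initiation, measured 855, 901 and 559 FPKM in the tumours and 225, 203 and 215 in the brains (log2 difference 1.81 ± 0.26, adjusted p = 0.00108), and Eif3d, an initiation subunit, 348, 317 and 270.3 FPKM in the tumours and 13, 25.9 and 48 in the brains (log2 difference 3.56 ± 0.41, adjusted p = 0.000402). Cytosolic ribosomal proteins had a median of 0.12, with 2 higher and 3 lower of 81, below the 8.82% and 13.8% of all tested genes. In the translation factors list the 14 that passed became 9 without tumour replicate 1 or brain replicate 1. In the cytosolic ribosomal proteins list the 5 that passed became 3 without tumour replicate 2 or brain replicate 1, 19 without tumour replicate 3, 2 without brain replicate 2. The pulled-down protein's own gene, Rpl10a, measured 190.3, 269 and 77.6 FPKM in the tumours and 48.2, 26.1 and 73.6 in the brains (log2 difference 1.78 ± 0.51, adjusted p = 0.0295, 0.0832 with the 6 libraries alone), and the labels do not say whether reads of the transgene count toward it. Rps27l, which codes for a variant of a small-subunit protein, was listed at 0 in all tumours and at 31.1, 58.6 and 19.6 FPKM in brains. Rpl10a did not pass without tumour replicate 1 (adjusted p = 0.0853), tumour replicate 2 (0.0901), brain replicate 1 (0.0627) or brain replicate 2 (0.0973).

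Cytosolic chaperones rose in 11 of 22, with 1 lower. Cct5, a subunit of the chaperonin that folds actin and tubulin, measured 706, 546 and 348 FPKM in the tumours and 72, 108 and 141 in the brains (log2 difference 2.30 ± 0.32, adjusted p = 0.00104). Hsp90ab1, the constitutive HSP90, measured 3027, 2834 and 2388 FPKM in the tumours and 1078, 913 and 889 in the brains (log2 difference 1.52 ± 0.22, adjusted p = 0.00111). Hspb1, a small heat shock protein, was the one that fell, at 28.7, 0 and 14.6 FPKM in the tumours and 427, 152 and 252 in the brains (log2 difference -5.04 ± 0.97, adjusted p = 0.00544). Of the unfolded protein response list 2 rose and 1 fell of 25, beside 8.82% higher and 13.8% lower among all tested genes. In the unfolded protein response and ER chaperones list the 3 that passed became 7 without tumour replicate 3. 

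**Figure D5:**
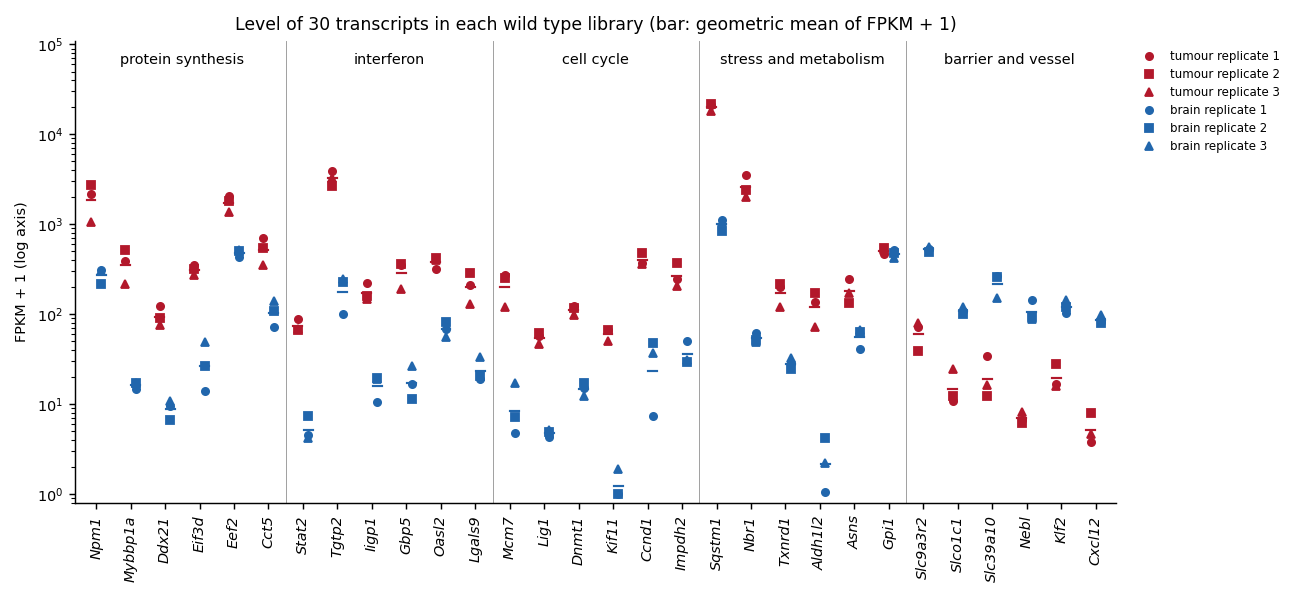
FPKM + 1 on a logarithmic axis for 30 genes in each of the 6 wild type libraries; points are libraries and bars the geometric means of FPKM + 1. Sqstm1 is the highest gene plotted in every tumour library, and Kif11 lies at or near 0 FPKM in the brains.

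Inflammatory and stress lists were mixed, beside 8.82% higher and 13.8% lower among all tested genes. Of the NF-kB and inflammation genes 7 of 28 rose, with Tnfaip2, a target of tumour necrosis factor, at 21.2, 37.2 and 49.4 FPKM in the tumours and 0, 1.14 and 3.52 in the brains (log2 difference 4.04 ± 0.83, adjusted p = 0.00752) and Ifi204, a DNA sensor, at 34.8, 42.9 and 31.1 FPKM in the tumours and 5.25, 0 and 0 in the brains (log2 difference 4.33 ± 0.71, adjusted p = 0.00248). After pan-endothelial scaling no member fell in the immediate early, hypoxia, lysosomal, lipid synthesis and checkpoint lists. As deposited, immediate early genes gave 1 higher and 5 lower of 20. Myc, the growth factor-induced regulator of ribosome and cell cycle genes, was the higher one, at 27.9, 15.6 and 15.4 FPKM in the tumours and 0, 4.83 and 0.708 in the brains (log2 difference 3.21 ± 0.68, adjusted p = 0.00856, 0.0568 with the 6 libraries alone), and Btg2, an antiproliferative gene, was among the lower, at 4.26, 6.04 and 6.05 FPKM in the tumours and 54.7, 18.8 and 25.1 in the brains (log2 difference -2.26 ± 0.61, adjusted p = 0.0229, 0.0602 with the 6 libraries alone, 0.461 after pan-endothelial scaling). Of the hypoxia list 2 rose and 6 fell of 20, with Hif1a, which codes for HIF-1alpha, at 71.4, 110.3 and 71.9 FPKM in the tumours and 11.9, 55 and 21.2 in the brains (log2 difference 1.73 ± 0.49, adjusted p = 0.0283, 0.0938 with the 6 libraries alone). In the immediate early list the 6 that passed became 3 without tumour replicate 1 or brain replicate 2 or brain replicate 3, 2 without brain replicate 1. In the hypoxia response list the 8 that passed became 5 without tumour replicate 1, 1 without brain replicate 1, 4 without brain replicate 2, 3 without brain replicate 3. Lysosomal genes gave 4 higher and 5 lower of 28, not far from the shares of all tested genes. Grn, progranulin, measured 237, 253 and 110.3 FPKM in the tumours and 50.4, 33.8 and 39.7 in the brains (log2 difference 2.18 ± 0.38, adjusted p = 0.00341), and Psap, the precursor of the saposins, 115, 73.3 and 129.9 FPKM in the tumours and 247, 285 and 268 in the brains (log2 difference -1.36 ± 0.27, adjusted p = 0.00616, turning to 0.20 after pan-endothelial scaling). Cholesterol and lipid synthesis gave 1 higher and 5 lower of 28, the latter near the share of all tested genes. In the cholesterol and lipid synthesis list the 6 that passed became 2 without tumour replicate 1 or brain replicate 1 or brain replicate 2. Checkpoint genes gave 3 higher and 1 lower of 13, the lower one being Sirpa, a receptor on neurons and myeloid cells, at 12.5, 9.65 and 28.2 FPKM in the tumours and 95.4, 85.7 and 57.1 in the brains (log2 difference -2.28 ± 0.42, adjusted p = 0.00438, 0.283 after pan-endothelial scaling). In the checkpoint ligands and receptors list the 4 that passed became 2 without tumour replicate 1 or brain replicate 1. Btg2 did not pass without tumour replicate 1 (adjusted p = 0.0664) or brain replicate 1 (0.0804). Hif1a did not pass without tumour replicate 1 (adjusted p = 0.0568), tumour replicate 2 (0.075), brain replicate 1 (0.0854) or brain replicate 3 (0.0743).

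Some genes were bounded near no change. For 329 genes (2.32%) the 95% confidence interval lay within 1 log2 unit of 0. Hspa8, the constitutive HSC70, measured 2194, 2516 and 1976 FPKM in the tumours and 1839, 1324 and 1804 in the brains (log2 difference 0.44, interval -0.056 to 0.93), and Ctnnb1, beta-catenin itself, 242, 278 and 243 FPKM in the tumours and 411, 299 and 238 in the brains (interval -0.96 to 0.41). The interval was -0.51 to 0.70 for Atp5a1, a subunit of ATP synthase. Gpi1, of glycolysis, gave -0.38 to 0.59, Jak1, the kinase of interferon receptors, -0.57 to 0.83, and Psmb4, a constitutive proteasome subunit, -0.41 to 0.87. Jak1 was thus bounded while Stat2, which acts after it, rose. After pan-endothelial scaling these genes were higher in tumour, with Hspa8 at 1.99 and Ctnnb1 at 1.28. Adgrl4, the gene also called Eltd1, measured 45, 192 and 27.4 FPKM in the tumours and 166, 82.7 and 153 in the brains in these wild type mice (log2 difference -1.03 ± 0.62, adjusted p = 0.241).

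Outside the lists, the largest rises included genes of chromatin and secretion. Moxd1, a monooxygenase of neural crest, measured 260.2, 302 and 136 FPKM in the tumours and 0.72, 6.65 and 1 in the brains (log2 difference 6.22 ± 0.71, adjusted p = 0.000369). Atad2, a chromatin ATPase of dividing cells, measured 71.9, 116 and 67.7 FPKM in the tumours and 0.19, 3.9 and 1.65 in the brains (log2 difference 5.07 ± 0.60, adjusted p = 0.000405), and Pprc1, a coactivator of mitochondrial genes, 87.1, 132 and 108 FPKM in the tumours and 1.47, 1.95 and 2.41 in the brains (log2 difference 5.21 ± 0.52, adjusted p = 0.000203). Serpina3n, an acute phase protease inhibitor that reactive astrocytes also make, measured 185, 136 and 147 FPKM in the tumours and 1.68, 13.8 and 7.76 in the brains (log2 difference 4.47 ± 0.58, adjusted p = 0.000659). Plagl1, an imprinted zinc finger factor, measured 151, 209.8 and 109 FPKM in the tumours and 3.9, 2.04 and 15 in the brains (log2 difference 4.62 ± 0.76, adjusted p = 0.00244). The largest falls included Meg3, an imprinted long noncoding RNA abundant in neurons and endothelium, at 2.12, 0.0592 and 4.92 FPKM in the tumours and 146, 138 and 42.6 in the brains (log2 difference -5.16 ± 0.67, adjusted p = 0.000659), with -3.60 after scaling. Slc12a5, the neuronal chloride exporter, measured 6.98, 1.77 and 43.3 FPKM in the tumours and 188, 182 and 152 in the brains (log2 difference -4.13 ± 0.76, adjusted p = 0.00453). For this gene tumour replicate 3 lay above the other tumours, as in the neuronal marker sum, and the part of neuronal RNA was not tested. Nebl, a nebulin-like protein of actin filaments, fell with little spread among tumours, at 5.74, 5.18 and 7.23 FPKM in the tumours and 141, 91.8 and 86.5 in the brains (log2 difference -3.91 ± 0.52, adjusted p = 0.000728). 

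In the knockout mice most of the passing genes differed in the same direction. Their tumour and brain libraries were not used for the wild type means, though they entered the shared spread. Of the 1249 higher genes 1224 had a difference of the same sign in knockout mice (98.0%), and 623 passed there. Of the 1948 lower genes 1902 had the same sign and 311 passed, beside 78.4% of the same sign among all tested genes. In the knockout comparison 1121 genes passed in all (7.91%). The test of the difference between genotypes passed for 1 gene (0.00706%), Cox4i1, a subunit of cytochrome c oxidase, and 419 were at an unadjusted p under 0.05. The knockout difference was 4.86 for Kif11, 3.97 for Stat2, -2.85 for Slc9a3r2 and -2.47 for Klf2.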

How the data were processed

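Values are FPKM per gene as deposited by the authors, 1 file per library. Per the submitters' processing notes, TopHat2 2.1.1, Cufflinks 2.2.1 and GRCm38 were used; the sources used here give neither their roles nor the annotation, strand setting and treatment of multiply mapping reads. Per the labels' protocols, ribosomal RNA was depleted, samples of RNA integrity above 7 were kept and stranded libraries were sequenced on a HiSeq2500. Low FPKM values shared no common step between libraries (0.173% to 1.293% of low genes on the most frequent ratio in 15 pairs), so no read numbers were recovered and precision rests on 3 libraries a group. Entries with a repeated symbol were summed. Genes with at least 1 FPKM in 2 of the 6 wild type libraries were tested on log2(FPKM + 1), a scale that understates changes of low genes, with limma 3.58.1 (R 4.3.3) on 4 group means with a variance trend, an estimate shared by all 11 libraries with 7 residual degrees of freedom, and Benjamini-Hochberg adjustment at 0.05. In simulated data over 14166 genes, 67, 67 and 66 genes were changed by 1, 2 and 3 log2 units, and this fit recovered 0%, 5.97% and 25.8% of them. Far fewer genes were changed there than passed here, and the adjustment is stricter when fewer genes differ. These shares therefore do not give the recovery in the present data. A gene that did not pass is not shown to be unchanged.

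Genes were named by rule: the 15 largest rises and falls passing in both fits without overlap, up to 6 members of each list with the smallest p and 2 with the narrowest interval near 0, up to 8 genes outside the lists in each direction, Adgrl4 and Cdh5. Some genes that the rule picks are not reported here. The 68 lists and the members were chosen with earlier results of these data known. Scalings, pseudocounts, filters, covariates, weights and single libraries left out were tried as alternatives. Promoters came from RefSeq's table for GRCm38.p6.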

Additional observations from a re-analysis of the deposited data

Results flagged for a closer look

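Cox4i1, a subunit of cytochrome c oxidase, differed between the genotypes in its tumour minus brain difference, by -6.521 ± 0.73 log2 units (SE; limma, adjusted p = 0.0229). It was listed at 0 in all 3 wild type tumours and at 396, 173 and 163 FPKM in the wild type brains, and at 56.5 and 109.7 FPKM in the 2 knockout tumours. The gene lies on chromosome 8 (GRCm38), inside a stretch of 59 neighbouring expressed genes from Usp10 to Galnt2, at 119910360 to 124345722, that were all listed at 0 in tumour replicates 1 and 3. It no longer counts among the genes tested once such stretches are left out. Whether these zeros reflect the processing was not tested.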

How the results depend on the processing

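The number of genes that passed was 3197. It became 1091 with the 6 wild type libraries alone, 1862 for genes above 0 in all 6 libraries, 5311 after pan-endothelial scaling, 5442 with library weights, 632 for a minimum log2 change of 1, and 36 with the neuronal level as covariate, under which 112 of the 132 named genes kept their direction but no longer passed. The neuronal level did not overlap between tumours and brains, so that fit cannot separate it from the comparison. With 1 library left out the number of passing genes ranged from 1961 to 4027, and a setting chosen after seeing the data, without tumour replicate 2 and with genes above 0 in the other 5 libraries, gave 2050. Other pseudocounts, filters and scalings, no variance trend, a Y-linked covariate and leaving out genes in runs of zeros gave 2281 to 3267. For the genotype difference, 1 gene passed by limma and 419 were at an unadjusted p under 0.05. It became 0 without a filter, for genes above 0 in all 6, with quantile normalisation, pan-endothelial scaling, no variance trend, a minimum change, the neuronal covariate, and without runs of zeros (unadjusted 539, 250, 516, 376, 438, 98, 455 and 382), 8 with library weights, and 0 to 14 with 1 library left out, 14 being without tumour replicate 2. The sign turned after pan-endothelial scaling for Adgrl4 (0.52), Chst1 (0.059), Ctnnb1 (1.28), Psap (0.20) and Ptrf (0.087). Jak1 turned with library weights (-0.13) and ranged from -0.10 to 0.27 with 1 library left out. Atp5a1 then ranged from -0.064 to 0.22, and with the neuronal covariate Atp5a1 (-0.042), Psmb4 (-0.31) and Eno2 (0.41) turned; the causes were not tested. No paired analysis was possible because the labels give no number shared between groups, and the replicate numbers only follow the order of deposit. FPKM keeps no read number, so counting error is unknown.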
